A study of Mus musculus with 18 samples.

Results

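Hyaluronan synthesis, breakdown and binding were followed in mouse knee cartilage through 8 genes chosen by name, of 49184 genes measured. They are the synthases Has1, Has2 and Has3, the breakdown genes Hyal1, Hyal2 and Cemip, and the binding genes Tnfaip6 and Cd44. The study loaded the right knee of male C57Bl/6J mice, 12 weeks old by its methods, once with 12 N until the anterior cruciate ligament (ACL) ruptured, a non-surgical model of post-traumatic osteoarthritis. Cartilage caps were collected 1 or 7 days later, and total RNA depleted of ribosomal RNA was sequenced. The 18 libraries comprised 3 injured and 3 contralateral libraries at day 1, the same numbers at day 7, and 6 libraries of naive mice labelled day 7. All mice were wild type, contralateral libraries came from the unloaded left knees of ruptured mice, and naive mice received no load. Each library was a pool of cartilage. The series text gives 4 mice per pool, whereas the sampling scheme gives 2 mice at day 1, 4 mice at day 7, where cartilage was partly lost, and 2 knees per naive pool drawn from 6 mice. Naive libraries therefore share mice, and injured and contralateral pools come from the same animals, but the labels name neither. P-values measure the spread between these pools as if they were independent.

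Hyaluronan is a long, unbranched chain of alternating glucuronic acid and N-acetylglucosamine that is made at the plasma membrane by the Has enzymes from UDP-sugars and extruded into the matrix. In cartilage it is the backbone on which aggrecan is held by link protein, and in synovial fluid it lubricates the joint. It is cut by hyaluronidases and by the Cemip pathway, taken up through receptors such as Cd44, and modified by Tnfaip6 (TSG-6), a secreted protein induced in inflammation that transfers heavy chains of inter-alpha-inhibitor onto hyaluronan.

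Estimated counts ranged from 16074762 to 41794005 per library, with a median of 25465706.5. The 8 genes passed the filter on low counts, and the lowest value of any of them was 23 counts, for Has3. Levels are given as CPM, counts scaled to a common library total, after TMM normalization of library sizes. TMM factors were 0.829 to 0.852 in the day 7 injured libraries, 1.08 to 1.16 in the day 1 injured and 0.962 to 1.12 in the naive ones. They were 0.696 (replicate 1) to 1.08 in the day 7 contralateral and 1.05 to 1.13 in the day 1 contralateral libraries. Without TMM every log2 difference of day 7 injured cartilage would be lower, by 0.30 against naive, 0.12 against day 7 contralateral and 0.43 against day 1 injured cartilage. The chondrocyte markers were led by Col2a1, with a mean of 3553 CPM over the 18 libraries, and none of the 10 was at 0. RNA of other tissues was also present, since the erythroid list was led by Hbb-bs at 13556 CPM and the skeletal muscle list by Myh4 at 1906 CPM. In bulk tissue of this kind, fewer cells of a type and less RNA per cell cannot be told apart. Day 7 contralateral replicate 1 stood apart from the other libraries: its 10 most abundant genes held 42.5% of its counts, against 16.6 to 29.8% elsewhere. Naive replicate 5, day 1 contralateral replicate 3 and day 1 injured replicate 2 also stood apart from their own groups in Has1, Has2 and Tnfaip6, as described below.

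Per unit of transcript length, Cd44 was by far the most abundant of these genes. In TPM, which scales counts by transcript length and library total, its mean was 45.8 ± 7.4045 (SD, n = 6) in naive cartilage, and the next gene, Hyal2, had 4.07 ± 0.57, with ranges that did not overlap. The naive means of Has1 (2.08), Cemip (2.07), Tnfaip6 (1.85), Hyal1 (1.83) and Has2 (0.80) followed with overlapping ranges between neighbours, and Has3 was lowest at 0.38. In day 7 injured cartilage Cd44 still led with 51.2 ± 11.6 TPM (n = 3), but Tnfaip6 was next at 14.9 ± 7.57 and then Has1 at 6.52 ± 3.50, with overlapping ranges. Among the synthases the order by mean at day 7 was Has1, Has2 (2.25 TPM) and Has3 (0.25 TPM), and the 3 ranges were apart.

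**Figure D1:**
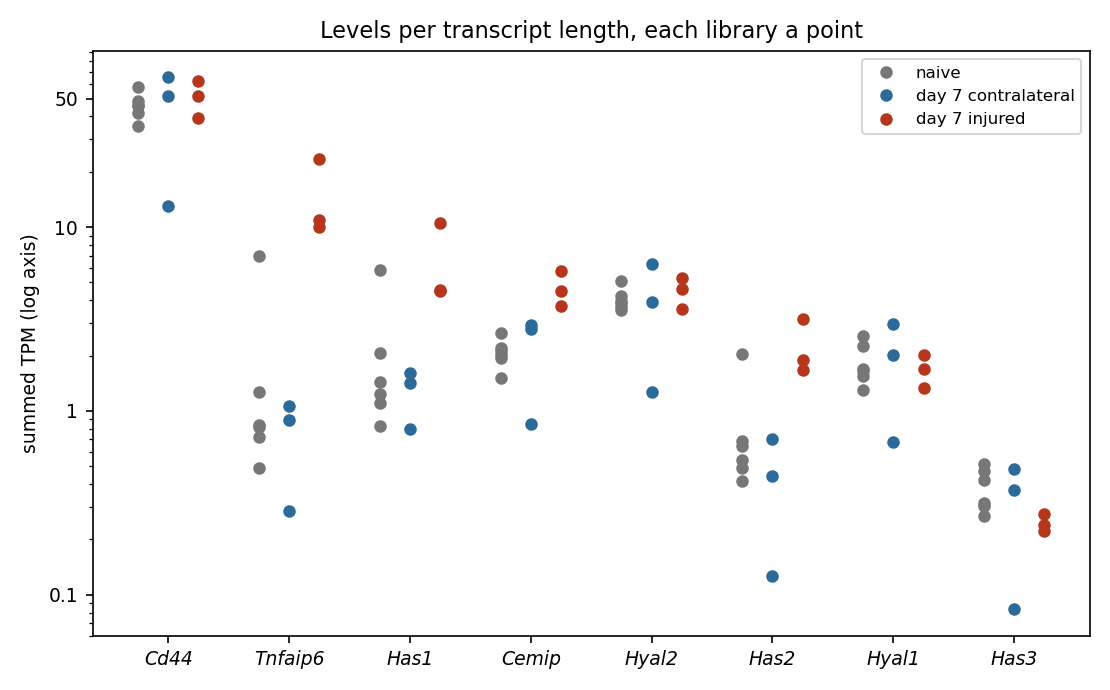
Summed TPM (log axis) of the 8 genes in each naive (grey), day 7 contralateral (blue) and day 7 injured (red) library, in order of the day 7 injured mean. Cd44 lies between 35.3 and 57.6 in the naive libraries, and Tnfaip6 moves from 0.49 to 6.97 in naive to 10.1 to 23.6 in day 7 injured cartilage.

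At day 7 following rupture, Tnfaip6, Has1, Has2 and Cemip were higher in injured than in naive cartilage. These 4 of the 8 genes were called in edgeR's quasi-likelihood test, and none was called lower. A call needed a false discovery rate (FDR) no greater than 0.05 together with a change of 1.5-fold or more. Among all 21129 genes tested, 10.4% were called higher and 6.11% lower, and over all genes the log2 fold changes had a median of -0.04. In 5 of the 8 genes all injured libraries lay above all naive ones, as in 17.4% of all genes. Against the day 7 contralateral knees, Has2, Hyal2, Cemip and Tnfaip6 were called higher, beside 9.33% of 21262 genes. In 6 of the 8 genes all injured libraries lay above the contralateral ones, as in 18.6% of all genes. Without TMM this held for Cemip and Tnfaip6 against naive cartilage, and for these and Has1 and Has2 against contralateral cartilage. The injured libraries are the same in both comparisons, so that they are not independent of each other.

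**Figure D2:**
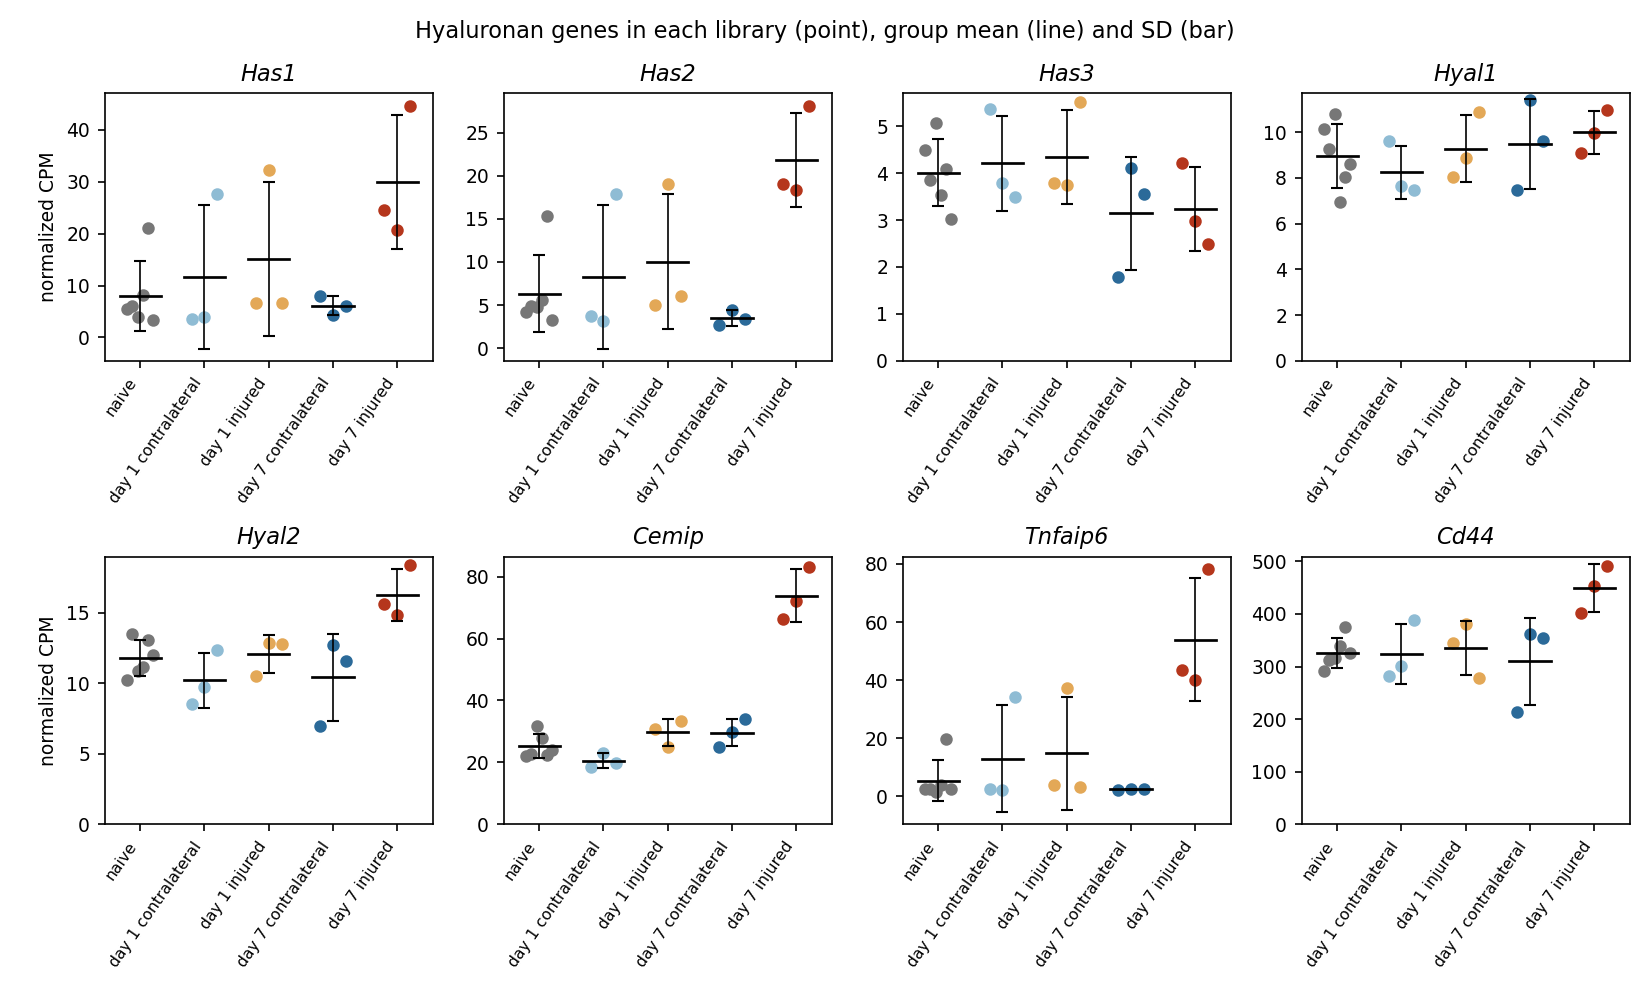
Normalized CPM of each gene in every library (points) by group, with the group mean (line) and SD (bar). With TMM, the day 7 injured libraries lie above all others in Cemip, Hyal2, Cd44 and, narrowly, Tnfaip6 (without it, in Cemip alone), and Has1, Has2 and Tnfaip6 were also high in 1 naive, 1 day 1 contralateral and 1 day 1 injured library.

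Has2 (chr15:56665627-56694539, minus strand in GRCm38), the synthase that supplies most hyaluronan in cartilage, had 19.1, 18.4 and 28.1 CPM in the day 7 injured libraries. The naive libraries ranged from 3.31 to 15.3 with a median of 4.79, and the day 7 contralateral libraries had 2.65, 4.46 and 3.41. The injured libraries thus lay above both groups, and the nearest library was naive replicate 5, which reached into their range when TMM was left out (17.2 CPM against 15.2 to 23.9). The log2 fold change was 1.80 ± 0.56 (SE, FDR 0.0258) against naive and 2.62 ± 0.69 (FDR 0.0123) against contralateral cartilage. Leaving out day 7 injured replicate 3 ended both calls (FDR 0.106 and 0.0517), and leaving out naive replicate 1 ended the first (FDR 0.0511).

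Has1 (chr17:17843323-17855205, minus strand), a synthase of low activity that is induced by cytokines, had 24.6, 20.7 and 44.6 CPM at day 7 following rupture. Naive libraries ranged from 3.35 to 21.1 with a median of 5.67, and day 7 contralateral libraries had 7.95, 4.32 and 5.98. Naive replicate 5 reached into the injured range, and the contralateral libraries did not. Has1 rose by 1.92 ± 0.70 on the log2 scale against naive (FDR 0.0491), a call that remained in only 1 of 9 fits that each left out 1 library, the fit without naive replicate 5 (FDR 0.0108); in the other 8 fits the FDR ran from 0.0685 to 0.1985, the highest without day 7 injured replicate 3. DESeq2 did not call Has1 against naive cartilage (FDR 0.0524). Against contralateral cartilage the difference was 2.32 ± 0.84 (FDR 0.0634). It was called there by DESeq2 (FDR 0.0390) and by edgeR fitted to the 6 libraries compared (FDR 0.00468). It was called in 0 of the 6 fits that each left out 1 library (FDR 0.0811 to 0.214).

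Has3 (chr8:106870242-106884566, plus strand), which makes shorter chains, did not follow the other synthases. Its day 7 injured libraries had 4.22, 2.98 and 2.498 CPM, inside the range of 3.03 to 5.08 of naive libraries except for the lower pair, and the contralateral libraries had 1.79, 4.10 and 3.55. The log2 differences were -0.29 ± 0.22 (FDR 0.332) and 0.01 ± 0.29 (FDR 0.986).

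Among the breakdown genes, Cemip (chr7:83932857-84086502, minus strand), which is needed for depolymerization of hyaluronan outside the lysosome in fibroblasts and chondrocytes, had the smallest spread relative to its change. The day 7 injured libraries had 66.3, 72.3 and 83.1 CPM. Naive libraries ranged from 22.2 to 31.7 (median 23.4), and day 7 contralateral libraries had 25.1, 29.8 and 34.0. Every day 7 injured library was at least as high as 66.3 CPM, and no library of any other group exceeded 34.0. In TPM this separation did not hold for day 1 injured replicate 3, which had 4.67, above day 7 injured replicates 1 (3.72) and 2 (4.50). Cemip rose by 1.57 ± 0.12 (FDR 2.41e-07) against naive and by 1.31 ± 0.16 (FDR 1.35e-05) against contralateral cartilage. Both calls were kept in each fit that left out 1 library and under the other settings tried.

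Hyal2 (chr9:107567945-107572779, plus strand), a membrane-anchored hyaluronidase that cuts long chains into fragments, had 15.6, 14.8 and 18.4 CPM at day 7 following rupture against 10.2 to 13.5 (median 11.6) in naive cartilage. Day 7 contralateral libraries had 6.94, 12.7 and 11.6. The injured libraries were above both groups with TMM, but without it they had 12.3 to 15.6 CPM and overlapped the naive (10.8 to 14.6) and contralateral (4.83 to 13.7) libraries. The log2 difference from naive was 0.48 ± 0.13 (FDR 0.0112), under the 1.5-fold limit, and that from contralateral cartilage was 0.63 ± 0.19 (FDR 0.0277). The contralateral call was lost without day 7 contralateral replicate 1 (log2 0.44, FDR 0.0790) and without day 7 injured replicate 3 (FDR 0.133), and also with average transcript lengths as offset (FDR 0.115) or with the 6 compared libraries fitted alone (FDR 0.122). Hyal1 (chr9:107576927-107581710, plus strand), the lysosomal hyaluronidase that finishes the fragments, had 9.08, 9.95 and 10.96 CPM in injured, 6.93 to 10.8 in naive and 7.48, 11.4 and 9.60 in contralateral cartilage. These ranges overlapped, and the log2 differences were 0.18 ± 0.14 (FDR 0.374) and 0.07 ± 0.18 (FDR 0.850).

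Tnfaip6 (chr2:52038009-52056686, plus strand), the TSG-6 gene, had the largest fold change of the 8 genes in both day 7 comparisons. It had 43.5, 39.98 and 78.2 CPM in day 7 injured libraries and 2.26, 2.54 and 2.57 in the contralateral ones. Naive libraries ranged from 1.35 to 19.6 with a median of 2.55. Of the naive libraries, only replicate 5 was above 3.92. The log2 fold change was 3.32 ± 0.95 against naive (FDR 0.0160) and 4.44 ± 1.24 against contralateral cartilage (FDR 0.0180). The first ran from 2.95 without day 7 injured replicate 3, where the call was lost (FDR 0.0660), to 4.41 without naive replicate 5. The second was lost without day 7 injured replicate 3 (FDR 0.0594) and without contralateral replicate 1, 2 or 3 (FDR 0.0537, 0.0539 and 0.0534). Its log2 fold changes were 4.07 to 4.63 in the fits that each left out 1 library.

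Cd44 (chr2:102811141-102901665, minus strand), the main cell surface receptor for hyaluronan, had 402, 454 and 492 CPM in day 7 injured libraries, 291 to 375 (median 321) in naive and 214, 362 and 353 in contralateral libraries. All injured libraries lay above both groups with TMM, but without it they had 337 to 419 CPM and overlapped the naive (299.8 to 419) and contralateral (149 to 390) libraries. The differences were 0.48 ± 0.12 (FDR 0.00808) and 0.54 ± 0.18 (FDR 0.0443) on the log2 scale, both under the 1.5-fold limit. Against contralateral cartilage Cd44 was called without contralateral replicate 2 (0.65, FDR 0.0277) or 3 (0.63, FDR 0.0354) or injured replicate 1 (0.61, FDR 0.0442), and the difference was 0.35 without contralateral replicate 1.

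**Figure D3:**
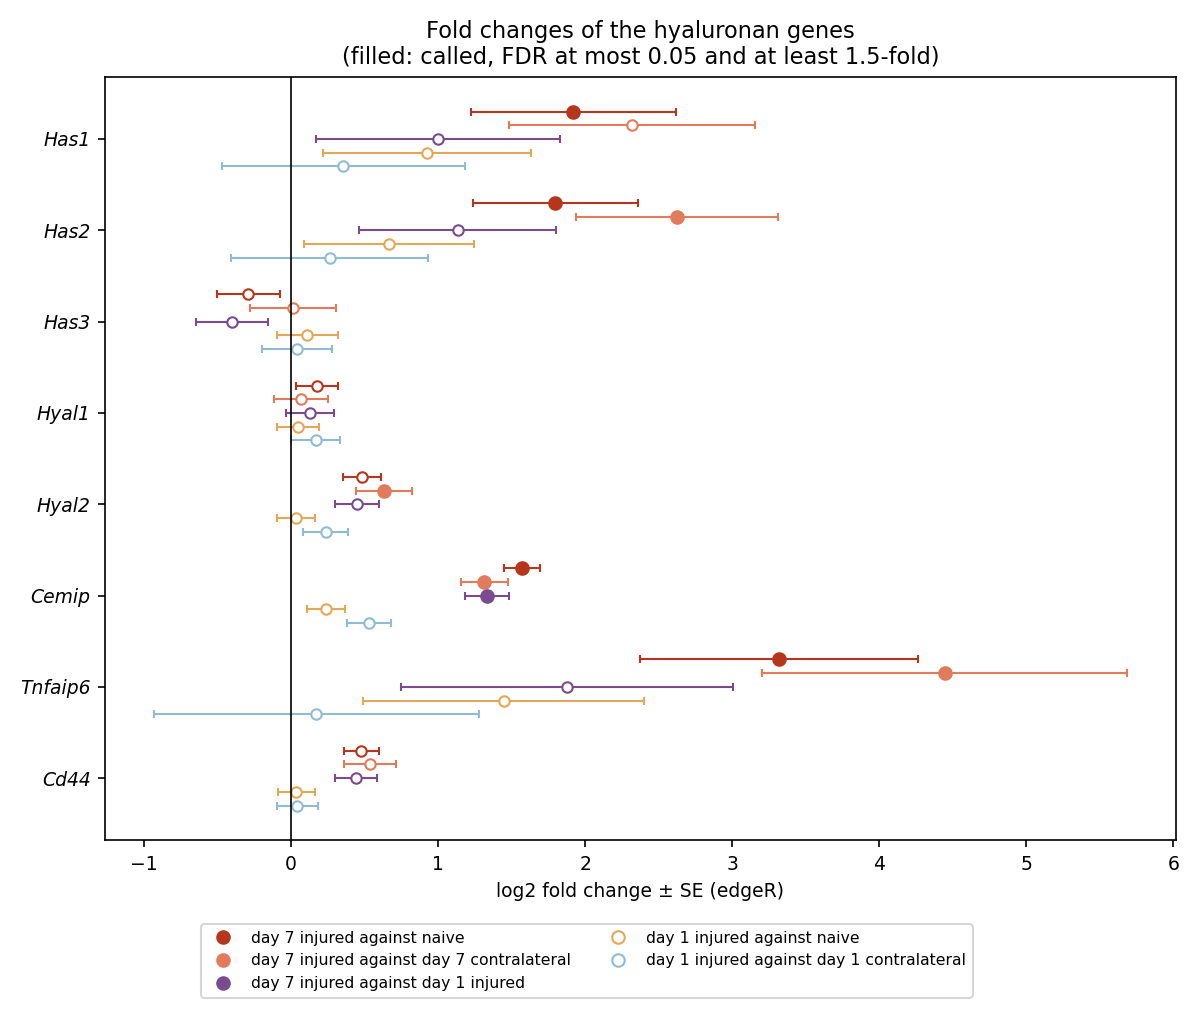
Log2 fold changes with SE from edgeR for the 8 genes in 5 comparisons, with filled points for calls. In day 7 injured against naive cartilage Cemip lies at 1.57 with an SE of 0.12 and Tnfaip6 at 3.32 with an SE of 0.95.

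Has1, Has2 and Tnfaip6 varied together between libraries, also where no rupture had taken place. Outside the day 7 injured group, the 3 highest of 15 libraries were the same for all 3 genes, in the same order: day 1 injured replicate 2, day 1 contralateral replicate 3 and naive replicate 5. Tnfaip6 had 37.1, 34.1 and 19.6 CPM in them, and the next library had 4.04. Has2 had 19.0, 17.9 and 15.3 CPM, and the next library had 6.09. For Has1 the values were 32.2, 27.6 and 21.1 CPM, followed by 8.12. Each of the 3 libraries belongs to a different group, and naive mice received no load. Cd44 was also highest in the same 3 libraries (381, 389 and 375 CPM), although the next library was close (362 CPM). Cemip was not: it had 25.02, 19.9 and 22.4 CPM in them, within the range of the remaining libraries outside the day 7 injured group.

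Across the 18 libraries, Pearson's r of log2(CPM + 0.5) was 0.95 for Has1 with Has2, 0.96 for Has1 with Tnfaip6 and 0.97 for Has2 with Tnfaip6. In the 15 libraries without the day 7 injured group it was 0.91, 0.95 and 0.95. For Cemip with Tnfaip6 it was 0.57 over 18 and -0.34 over 15 libraries. These values describe libraries that share groups and mice, and those over 15 libraries include the 3 high libraries.

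**Figure D4:**
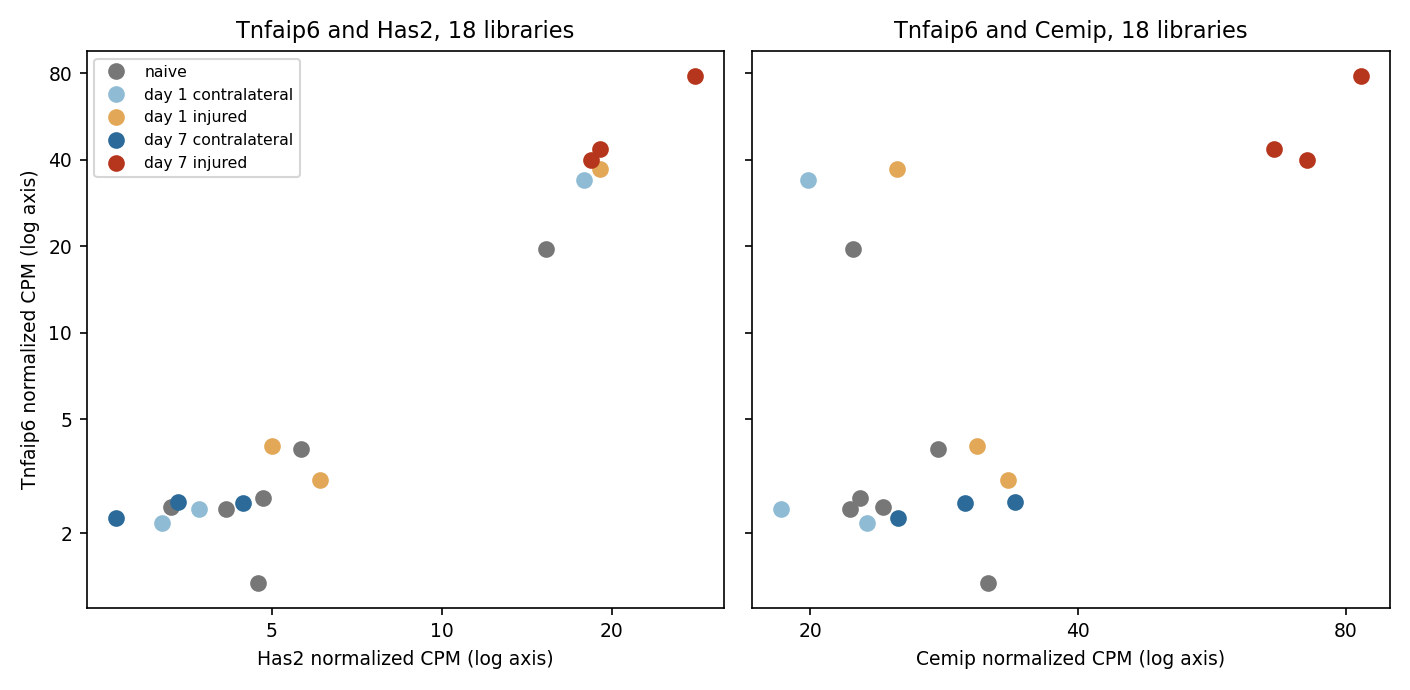
Tnfaip6 against Has2 (left) and Cemip (right) in the 18 libraries, in normalized CPM on log axes, with colours for groups. The day 1 injured, day 1 contralateral and naive libraries at 37.1, 34.1 and 19.6 CPM of Tnfaip6 lie beside the day 7 injured libraries for Has2 and far from them for Cemip.

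Other transcripts moved with these libraries. The summed adipocyte markers (5 genes, led by Fabp4 with a mean of 106 CPM) were at 104 CPM in day 1 injured replicate 2, 121 in day 1 contralateral replicate 3 and 120 in naive replicate 5, and at 117, 159 and 111 in the day 7 injured libraries. In the remaining 12 libraries they lay between 187 and 375 CPM. No adipocyte marker was at 0 in all libraries, and the lowest on average was Lep with 3.70 CPM. The skeletal muscle sum was 3097, 4075 and 2803 CPM in the 3 libraries, against 3500 to 11172 in the remaining 12. The summed synovial fibroblast markers were at 216, 233 and 230 CPM in these libraries against 230 to 372 in the other 12, but single markers of that list, named here after their values were seen, stood apart in opposite directions. Pdpn (podoplanin) had 47.5, 54.1 and 45.5 CPM in them, 5.69 to 15.2 in the other 12 and 40.8 to 52.4 in the day 7 injured libraries. Clic5 was lower in them, with 24.1, 22.9 and 24.9 CPM against 49.02 to 124 in the other 12, and so was Tspan15, with 9.16, 9.25 and 8.91 against 13.8 to 23.7 CPM. The day 7 injured libraries were not low in these genes, with 50.5 to 64.4 CPM of Clic5 and 16.1 to 23.3 of Tspan15. The part of these tissues in the levels of Has1, Has2 and Tnfaip6 was not tested.

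At day 1 following rupture, no hyaluronan gene was called in injured cartilage against either control. Of the 8 genes, 0 passed against naive cartilage in edgeR, beside 0% of all genes, and 0 of the 8 had an unadjusted p under 0.05, beside 4.54% of all genes. Over all genes, 959 had an unadjusted p under 0.05 in edgeR, and DESeq2 called 15 and limma-voom 0. Neither tool called any of the 8, but DESeq2 gave no adjusted p for 7 of them. Against day 1 contralateral cartilage 0 of the 8 were called by edgeR, DESeq2 (no adjusted p for Has2 and Tnfaip6) or limma-voom, beside 0% of all genes in edgeR (1383 with an unadjusted p under 0.05, and 0 called by the other tools), and 1 of the 8, Cemip, had an unadjusted p under 0.05, beside 6.55% of all genes. Cemip had 30.8, 25.02 and 33.4 CPM in injured and 18.5, 23.2 and 19.9 in contralateral knees. These libraries did not overlap, with all injured libraries above, as in 5.09% of all genes, and the log2 difference was 0.53 ± 0.15 (p 0.00272 in edgeR, FDR 0.755). From naive cartilage, day 1 injured knees differed in Cemip by 0.24 ± 0.13 (FDR 0.987), with overlapping libraries. Day 1 contralateral knees differed from naive ones by -0.29 ± 0.13 (FDR 0.9998).

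The day 1 differences of Has1, Has2 and Tnfaip6 rested on single libraries. Day 1 injured libraries had 6.59, 32.2 and 6.59 CPM of Has1, and contralateral libraries had 3.51, 3.86 and 27.6. For Tnfaip6 the values were 4.04, 37.1 and 3.07 CPM in injured and 2.43, 2.17 and 34.1 CPM in contralateral knees. Each group thus held a single high library. Against naive cartilage Tnfaip6 differed by 1.44 ± 0.96 (FDR 0.987), and without injured replicate 2 the sign turned to -0.61. Against contralateral cartilage the difference was 0.17 ± 1.11 (FDR 0.985), and it ran from -1.89 without injured replicate 2 to 2.69 without contralateral replicate 3. Has1 and Has2 differed from naive by 0.92 ± 0.71 and 0.67 ± 0.58 (FDR 0.987 for both), and from contralateral by 0.35 ± 0.83 (FDR 0.953) and 0.26 ± 0.67 (FDR 0.955), with the same turns of sign without injured replicate 2.

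The contralateral knees were compared with naive ones to see whether they had changed in their own right. At day 7, 0 of the 8 genes were called in edgeR, DESeq2 or limma-voom, beside 0% of all genes in edgeR (3220 or 15.1% with an unadjusted p under 0.05, against 0 of the 8, and 31 called by DESeq2 and 0 by limma-voom). The log2 differences were 0.24 ± 0.13 for Cemip (FDR 0.401), -1.13 ± 1.07 for Tnfaip6 (FDR 0.623), -0.84 ± 0.61 for Has2 (FDR 0.512) and -0.41 ± 0.73 for Has1 (FDR 0.806). Without naive replicate 5 they were -0.0485 for Tnfaip6, -0.35 for Has2 and 0.17 for Has1. At day 1, 0 of the 8 were called by these tools (with no adjusted p from DESeq2 for Has2 and Tnfaip6), beside 0% of all genes in edgeR (554 or 2.62% with an unadjusted p under 0.05, and 2 called by DESeq2 and 0 by limma-voom). Cemip was lower in day 1 contralateral than in naive cartilage by an unadjusted p of 0.0397 in edgeR (log2 -0.29 ± 0.13, FDR 0.9998), with overlapping libraries. Tnfaip6 differed by 1.27 ± 0.96, and by -1.25 without day 1 contralateral replicate 3.

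Between the injured groups, Cemip rose from day 1 to day 7 by 1.33 ± 0.15 (FDR 1.94e-05). It was the only gene of the 8 called, beside 9.04% of all genes called higher and 6.38% called lower. In TPM the rise of Cemip was smaller. Its mean was 4.66 (3.72 to 5.75) at day 7 against 3.56 (2.92 to 4.67) at day 1, with overlapping ranges. Hyal2 and Cd44 differed by 0.45 ± 0.15 (FDR 0.0412) and 0.44 ± 0.14 (FDR 0.0352), under the 1.5-fold limit, and all their day 7 libraries lay above the day 1 libraries. These differences were also present with DESeq2 (log2 0.43 for Hyal2 and 0.43 for Cd44) but not with plain library totals, where the means were 13.7 CPM of Hyal2 at both days and 377 against 379 CPM of Cd44, and in TPM both genes were lower at day 7 (4.49 against 6.20 for Hyal2, 51.2 against 68.3 for Cd44). In 4 of the 8 genes, these 2, Cemip and Tnfaip6, the day 7 libraries were all above with TMM, as in 22.8% of all genes. All day 7 libraries of Tnfaip6 also lay above all day 1 libraries with TMM, by a narrow margin from injured replicate 2, and without TMM they overlapped (33.1 to 66.6 against 3.56 to 42.97 CPM), and the difference was 1.88 ± 1.13 (FDR 0.237). Without that library it was 3.92 and called (FDR 0.0494), and limma-voom on all libraries called it too (FDR 0.0400). Has1 and Has2 differed by 1.00 ± 0.83 (FDR 0.397) and 1.13 ± 0.67 (FDR 0.231).

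Whether the difference between injured and contralateral knees was larger at day 7 than at day 1 was tested as an interaction. None of the 8 genes was called in edgeR, beside 3.53% of all genes called higher, and 0.245% lower, and 3 of the 8 had an unadjusted p under 0.05, beside 16.3% of all genes. These were Cemip (log2 0.78 ± 0.22, FDR 0.0562), Tnfaip6 (4.26 ± 1.59, FDR 0.166) and Has2 (2.36 ± 0.92, FDR 0.194). DESeq2 called Cemip (FDR 0.0255) and limma-voom called none. In edgeR Cemip was called without day 7 contralateral replicate 3 (FDR 0.0496) or day 7 injured replicate 1 (FDR 0.0474), and Tnfaip6 without day 1 injured replicate 2 (log2 6.32, FDR 0.0387).

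The genes whose levels followed each hyaluronan gene most closely were taken from 15988 genes by Pearson's r of log2(CPM + 0.5) over the 18 libraries, which share groups and depth. Tnfaip6 was followed by Il1r1, the interleukin-1 receptor (r 0.98), and Snai1, a transcription factor of mesenchymal cells (r 0.98). Snai1 was also closest to Has2 (r 0.98), ahead of Itga5, the fibronectin receptor subunit (r 0.98). In the 3 high libraries outside the day 7 injured group Snai1 had 11.4, 11.2 and 10.4 CPM, next to 11.4, 12.5 and 23.8 in the day 7 injured libraries and 2.65 to 4.85 in all the others. Has1 was closest to Steap1 (r 0.97) and Pcsk5 (r 0.97). Cemip was closest to matrix and protrusion genes, Sparc (r 0.98) and Sh3pxd2a (r 0.97). Sparc had a mean of 2415 CPM in naive and 6893 CPM in day 7 injured libraries. Cd44 was closest to Myo5a and Mapk6 (both r 0.96), Hyal2 to Klf10 (r 0.94) and Zdhhc9 (r 0.92), Has3 to Gm7336 (r 0.88) and Gm15356 (r 0.86), and Hyal1 to Limch1 and Pard6g (both r 0.82).

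The genes called against naive cartilage were also described by their promoters. RefSeq promoters (GRCm38.p6) were given for 3 of these 4 genes, Has1, Cemip and Tnfaip6. The bases upstream of both the RefSeq and the GENCODE start are printed 5′ to 3′ in the direction of transcription, with motif matches in capitals. They lie at chr17:17855206-17855438 (minus strand, Has1), chr2:52037863-52038008 (plus strand, Tnfaip6) and chr7:84086506-84086755 (minus strand, Cemip).
Has1: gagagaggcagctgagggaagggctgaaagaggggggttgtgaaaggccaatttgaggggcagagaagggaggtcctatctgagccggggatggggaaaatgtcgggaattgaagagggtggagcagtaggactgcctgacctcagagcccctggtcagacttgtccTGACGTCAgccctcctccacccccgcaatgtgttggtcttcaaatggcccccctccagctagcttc
Tnfaip6: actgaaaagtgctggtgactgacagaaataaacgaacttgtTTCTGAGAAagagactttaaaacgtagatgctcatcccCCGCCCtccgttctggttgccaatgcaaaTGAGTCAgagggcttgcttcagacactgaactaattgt
Cemip: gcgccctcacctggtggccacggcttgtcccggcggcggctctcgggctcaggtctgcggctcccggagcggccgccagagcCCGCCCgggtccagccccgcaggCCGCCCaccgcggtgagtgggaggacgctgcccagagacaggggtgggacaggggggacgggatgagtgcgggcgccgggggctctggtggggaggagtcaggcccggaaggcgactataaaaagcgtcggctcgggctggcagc

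The motifs were searched on both strands in the 250 bases before the RefSeq start. Has1 held the CRE letters TGACGTCA, 83 bases before the start, which were present in 1.55% of 32851 promoters. Tnfaip6 held the AP-1 letters (TGANTCA, 142 bases before the start, in 6.75% of promoters), the STAT letters (TTCNNNGAA, 209 bases, 7.02%) and the Sp1 letters (GGGCGG on the opposite strand, 171 bases, 32.7%). It also held the TEAD letters (GGAATG, 12.6% of promoters) on the opposite strand 8 bases before the start, outside the printed stretch. Cemip held only Sp1 letters, on the opposite strand at 168 and 145 bases. The letters searched for NF-kB, present in 1.41% of promoters, were in none of the 3. No match overlapped another, and none of the motifs searched was shared by Has1 and Tnfaip6. Has2 had no promoter entry, and only 146 of the 250 bases searched for Tnfaip6 lie upstream of both starts. The part of these motifs in the levels of the genes was not tested.

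Transcript shares were compared for the 4 genes with several transcripts and at least 1 TPM in every naive and day 7 injured library, Hyal1, Hyal2, Cemip and Cd44. The main Cemip transcript, Cemip-201 (7111 bases, 29 exons, 4083 coding bases), held 89.8% ± 4.03 of the TPM of Cemip at day 7 following rupture (n = 3) and 79.6% ± 6.45 in naive libraries (n = 6). The ranges, 85.4 to 93.2% and 71.5 to 89.8%, overlapped, and the exact two-sided permutation test gave p 0.0476 (adjusted over 4 genes 0.190, smallest possible p 0.0238). Cd44-203, a model of 9 exons with a coding length of 1095 bases, held 53.2% ± 1.51 and 51.7% ± 2.82 (exact permutation p 0.429, adjusted 0.667). Hyal1-202 held 43.3% ± 5.19 against 48.2% ± 11.4 (exact permutation p 0.500, adjusted 0.667). Hyal2-201 held 75.7% ± 8.26 against 75.1% ± 7.66 (exact permutation p 0.976, adjusted 0.976). Of the other Cd44 models, Cd44-207 (14 exons, 1731 coding bases) had 36.8 to 41.7% at day 7 following rupture and 29.8 to 37.3% in naive libraries. Cd44-201, the longest model (19 exons, 2340 coding bases), had 2.86 to 5.40% and 6.47 to 12.7%, ranges that did not overlap, but day 7 contralateral libraries ran from 1.40 to 8.18%, on both sides of the injured ones.

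The Has2 and Tnfaip6 counts each came from 1 model, Has2-201 and Tnfaip6-201, and Has1-201 held 94.9% of the Has1 TPM in naive libraries. Has3 was divided between Has3-201 (79.9% in naive libraries) and Has3-203 (20.1%), which have equal coding lengths of 1662 bases, and Has3-202 was at 0% in naive and day 7 injured libraries. The smaller models of Hyal1 in naive libraries were Hyal1-201 (37.1%), Hyal1-205, a model with a retained intron (12.3%), and Hyal1-203 (2.48%), and those of Hyal2 included Hyal2-202 (13.5%) and Hyal2-204 (3.56%).

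Of 43 other genes of the hyaluronan pathway, 34 passed the filter on low counts. In day 7 injured against naive cartilage 15 of them were called higher and 1 lower, beside 10.4% and 6.11% of all genes, and their median log2 fold change was 0.50. Against contralateral cartilage 13 were called higher and 0 lower, beside 9.33% and 3.23% of all genes, with a median of 0.65 against -0.05 for all genes. At day 1 none of the 34 was called in edgeR against naive or contralateral cartilage, beside 0% of all genes in both comparisons. From day 1 to day 7 in injured cartilage 9 of the 34 were called higher, beside 9.04% of all genes, and in the interaction 2, beside 3.53%.

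**Figure D5:**
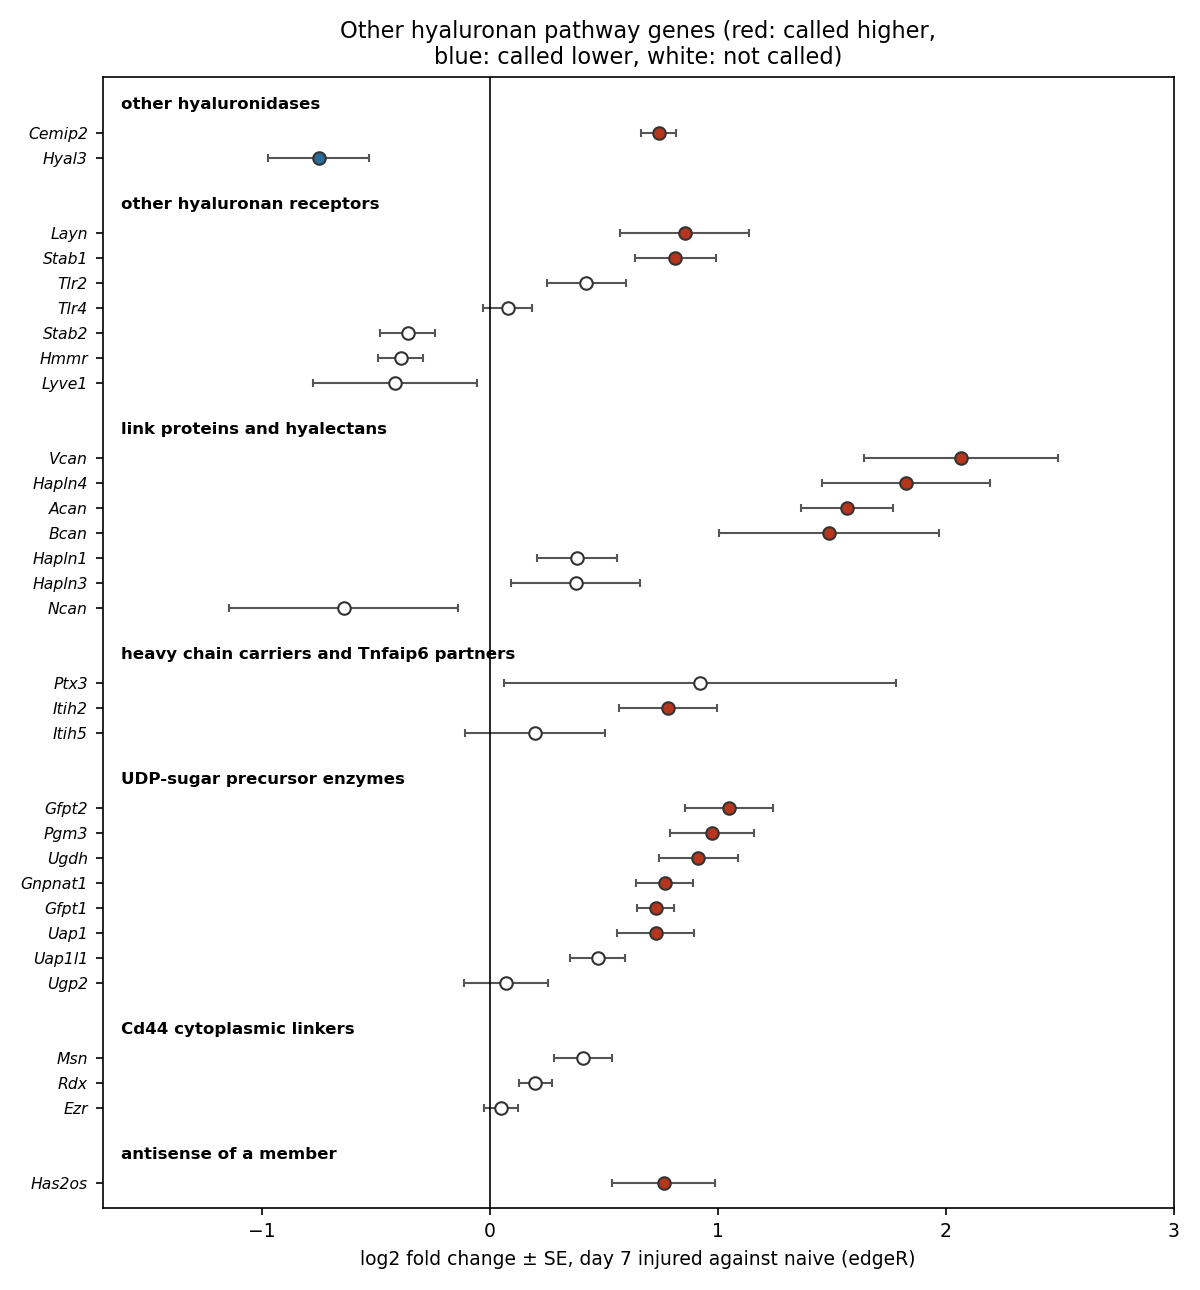
Log2 fold changes with SE of the tested pathway genes of the sublists described here in day 7 injured against naive cartilage, by sublist, with red for called higher, blue for called lower and white for not called. Vcan (2.07), Hapln4 (1.82), Acan (1.57) and Bcan (1.49) lead, and 6 of the 8 precursor enzymes lie between 0.73 and 1.05.

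The enzymes that make the UDP-sugar precursors of hyaluronan and of other glycans were called higher in 6 of 8 cases, beside 10.4% of all genes, with a median of 0.75. Gfpt2, which starts the hexosamine pathway, had 41.8, 53.7 and 71.5 CPM at day 7 following rupture against 18.8 to 36.9 in naive libraries and rose by 1.05 ± 0.19 (FDR 0.000813). Pgm3, Ugdh, which makes UDP-glucuronic acid, and Gnpnat1 rose by 0.97 ± 0.18 (FDR 0.00103), 0.91 ± 0.17 (FDR 0.000977) and 0.77 ± 0.13 (FDR 0.000307). The most abundant of the list, Ugp2, differed by 0.07 ± 0.19 (FDR 0.803). The same 4 named genes were called against contralateral cartilage, with 1.27, 0.77, 1.09 and 0.81. Their call there was kept without each library in turn for Gfpt2, Ugdh and Gnpnat1, and lost for Pgm3 without contralateral replicate 2 or 3 or injured replicate 3 (FDR 0.0683, 0.0531 and 0.0929). With average transcript lengths as offset, Gnpnat1 was not called (FDR 0.121).

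Of the link proteins and hyalectans, the proteoglycans and linkers that assemble on hyaluronan, 4 of 7 tested were called higher, beside 10.4% of all genes, with a median of 1.49. Vcan (versican) had 310, 411 and 514 CPM in day 7 injured libraries against 50.7 to 197 in naive ones, and rose by 2.07 ± 0.43 (FDR 0.00195). Its highest naive library was replicate 5. Vcan was also at 216 CPM in day 1 injured replicate 2 and 198 in day 1 contralateral replicate 3, against 32.7 to 114 in the remaining libraries outside day 7 injured. Acan (aggrecan), the most abundant, had 949, 1064 and 1252 CPM against 249 to 587 and rose by 1.57 ± 0.20 (FDR 3.31e-05). Hapln4 rose by 1.82 ± 0.37 (FDR 0.00168) and Bcan by 1.49 ± 0.48 (FDR 0.0308), both at low levels of 2.03 to 3.42 and 1.41 to 1.85 CPM. The Bcan call was lost without naive replicate 5 or 6 and without each injured replicate (FDR 0.0541 to 0.113). With average transcript lengths as offset, Hapln4 was not called against naive (log2 1.49, FDR 0.0649). Against contralateral cartilage Vcan (2.85, FDR 0.00106) and Acan (1.60, FDR 0.000238) were called, and Hapln4 (FDR 0.0719) and Bcan (FDR 0.342) were not. DESeq2 (FDR 0.0487) and edgeR fitted to the 6 libraries compared (FDR 0.0341) did call Hapln4 there. The 6 fits that each left out 1 library did not (FDR 0.0658 to 0.229).

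Of the other hyaluronidases, Hyal4, Hyal5, Hyal6 and Spam1 did not pass the filter on low counts, and none had more than 3 counts in any library. Cemip2, a transmembrane relative of Cemip, had 122, 135 and 153 CPM at day 7 following rupture against 78.6 to 88.5 in naive and 68.7, 83.9 and 87.0 in contralateral libraries. It rose by 0.74 ± 0.08 (FDR 3.65e-06) and 0.77 ± 0.10 (FDR 4.44e-05). Hyal3, whose gene overlaps Hyal1 on the same strand, fell by 0.75 on the log2 scale (SE 0.22, FDR 0.0196), from 1.93 to 2.85 CPM in naive to 1.25 to 1.45 CPM in injured libraries. The call was lost without injured replicate 2 (FDR 0.0532) or 3 (FDR 0.0872) and with average transcript lengths as offset (log2 -0.66, FDR 0.0519), and against contralateral cartilage Hyal3 was not called (FDR 0.119).

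Among other receptors 2 of 7 were called higher, beside 10.4% of all genes, with a median of 0.08. Stab1, a scavenger receptor, was the most abundant and rose by 0.81 ± 0.18 (FDR 0.00305). Layn (layilin) differed by 0.85 ± 0.28 (FDR 0.0340), with 8.85, 11.3 and 11.7 CPM in injured libraries and up to 9.51 in naive ones, and its call was kept only without naive replicate 5 or injured replicate 1 among 9 fits that left out 1 library (FDR up to 0.1195). Against contralateral cartilage both were called (FDR 0.0223 and 0.0149). Stab1 was lost there without contralateral replicate 2 or 3 or injured replicate 1 or 3 (FDR 0.0589 to 0.0857), and Layn without contralateral replicate 1 (FDR 0.0518) or injured replicate 3 (FDR 0.0635). Of the heavy chain carriers and partners of Tnfaip6, Itih1, Itih3, Itih4 and Ambp did not pass the filter on low counts. Of the 3 tested, Itih2 rose by 0.78 ± 0.21 (FDR 0.0127), with overlapping libraries and a call that was lost without injured replicate 2 (FDR 0.0901) or 3 (FDR 0.0505), and the most abundant, Itih5, differed by 0.20 ± 0.31 (FDR 0.658). The list's median was 0.78. Against contralateral cartilage Itih2 was called in all 6 fits that left out 1 library (log2 1.09 to 1.52, FDR up to 0.0197). The third gene, Ptx3, named after its values were seen, was not called. It had 22.4, 28.2 and 25.3 CPM in day 1 injured replicate 2, day 1 contralateral replicate 3 and naive replicate 5. The day 7 injured libraries had 12.9 to 13.1, and the remaining libraries 1.99 to 6.23. Itih5 was low in the same 3 libraries, with 46.2, 46.1 and 44.0 CPM, against 68.3 to 127 in all others.

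None of the 3 linkers of the Cd44 tail to actin was called, with a median of 0.20, and the most abundant, Msn (moesin), differed by 0.41 ± 0.13 (FDR 0.0256). Has2os, a transcript of the strand opposite Has2 that shares 4596 bases with its gene, was called at 0.76 ± 0.23 (FDR 0.0200), at 0.76 to 1.34 CPM in injured and 0.52 to 0.77 in naive libraries, which overlapped. The call was lost without injured replicate 3 (FDR 0.266), with no filter on low counts (FDR 0.0591), in DESeq2 (FDR 0.0668), with average transcript lengths as offset (FDR 0.0850) and with all 18 libraries fitted (FDR 0.0670). The kit marks strand, but the strand setting of the counting is not given in the sources used here, so that Has2 and Has2os reads may not be fully separate. Has3 (with Chtf8), Hyal1 (with Gm16343, Naa80 and Hyal3), Hyal2 (with Gm9917) and Cd44 (with Gm23731) also overlap other genes.

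Cell type markers were compared in the same way, beside 10.4% of all genes called higher and 6.11% called lower. In day 7 injured against naive cartilage 3 of 8 synovial fibroblast markers were called higher, and their summed level was 601 ± 50.5 CPM (n = 3) against 271 ± 45.7 (n = 6), led by Col15a1 with a mean of 102 CPM. Of 6 endothelial markers, led by Vwf (242 CPM), 3 were higher, with sums of 590 ± 39.1 and 509 ± 34.3 CPM. Vwf itself was not among them: it had 188 to 208 CPM in injured and 218 to 292 CPM in naive libraries, a log2 difference of -0.37 ± 0.12 (FDR 0.0271), under the 1.5-fold limit. Of 10 chondrocyte markers 1 was higher (6045 ± 339 against 4682 ± 1163 CPM). Of 7 osteoclast markers, led by Mmp9 (813 CPM), 1 was higher (1860 ± 74.6 against 1380 ± 261). Of 8 osteoblast and osteocyte markers, led by Ibsp (289.6 CPM), 1 was higher and 2 were lower (717 ± 31.2 against 651 ± 118).

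Markers of blood and marrow were lower or not called. Of 6 erythroid markers 3 were lower, with sums of 21494 ± 5356 and 32847 ± 3782 CPM. Of 10 neutrophil markers, led by Ngp (2501 CPM), 2 were lower (8891 ± 1555 against 11991 ± 1916), and of 4 lymphocyte markers, led by Cd79b (40.6 CPM), 1 was lower (71.6 ± 7.59 against 93.1 ± 16.03). Of 5 adipocyte markers 2 were lower (129 ± 25.9 against 243 ± 93.3). None of 9 macrophage markers, led by Lyz2 (1937 CPM), was called (2606 ± 275 against 2627 ± 303), nor any of 7 skeletal muscle markers (3387 ± 1121 against 6145 ± 2403). No marker of any list was at 0 in all libraries. Against day 7 contralateral cartilage 4 of 8 synovial fibroblast and 3 of 6 endothelial markers were called higher, beside 9.33% of all genes. Of 10 chondrocyte markers 1 was higher, but their median log2 difference was -0.48. Their contralateral sum was 7520 ± 5395 CPM, with 13738 in replicate 1. Called lower were 3 of 6 erythroid, 3 of 10 neutrophil and 3 of 5 adipocyte markers, beside 3.23% of all genes. So were 1 of 9 macrophage and 1 of 8 osteoblast and osteocyte markers. The part of these cell types in the hyaluronan genes at day 7 was not tested.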

How the data were processed

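Cartilage total RNA of 18 pooled libraries was sequenced by the authors after ribosomal RNA depletion with a stranded kit, trimmed, and quantified per transcript with Kallisto. The deposited files hold estimated counts and TPM per transcript, with transcript lengths and effective lengths. The submitters' processing notes name kallisto and DESeq2 without a version, and a human genome build, whereas the transcript IDs are mouse. The study's own fit used limma-voom with a correlation for shared pools, which the labels do not identify. Its methods also left out 1 library of low mapping rate. Which library that was, or whether it is among the 18, is not given in the sources used here, and all 18 were kept.

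Transcripts were matched to genes of GENCODE vM21 (GRCm38; 135107 of 137436, and the unmatched held 0.667 to 3.90% of a library's counts), and estimated counts were summed per gene and rounded. Totals ran from 16074762 to 41794005 per library. Tests used edgeR 4.0.16 (TMM, filterByExpr, quasi-likelihood) in R 4.3.3, with Benjamini-Hochberg adjustment over all genes tested; 15 libraries were fitted where day 7 contralateral knees were not compared and 18 otherwise. Calls needed an FDR of at most 0.05 and a 1.5-fold change. SE was the absolute log2 fold change divided by the square root of F. DESeq2 1.42.0, limma-voom (limma 3.58.1), other filters, scalings and thresholds, and fits without each library were alternatives. Transcript shares were compared by exact permutation in scipy 1.17.1. Scripts were tested on simulated data.

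Named were the 8 genes. Of each pathway sublist, up to 4 called genes with the largest change against naive and the most abundant gene were named. For each of the 8 genes the 2 most alike by Pearson's r among genes of at least 1 CPM, of each marker list the most abundant gene, and transcripts with at least 10% of a gene's TPM in a group were also named. Members and lists were chosen with earlier results of these data known. Protein sequences were not used here. A sublist of the pathway genes enters the pathway counts but is not reported here.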

Additional observations from a re-analysis of the deposited data

Results flagged for a closer look

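In naive cartilage, where 6 libraries allow a single high or low library to be picked out by Dixon's ratio of its gap to the range, 6 of 37 values tested held such a library. For independent, normally distributed values chance alone gives about 1 in 20, but the naive libraries share mice, so that this rate is only a rough guide. Naive replicate 5 was high in 4 of them: Has1 (21.1 CPM, next 8.12, ratio 0.732), Has2 (15.3 CPM, next 5.64, ratio 0.807), Tnfaip6 (19.6 CPM, next 3.92, ratio 0.859) and Vcan (197 CPM, next 105, ratio 0.629). Naive replicate 3 was high in the summed chondrocyte markers (6941 CPM, next 4615, ratio 0.741). Naive replicate 4 was high in Has2os, at 0.770 CPM (next 0.597, ratio 0.688). Has1, Has2 and Tnfaip6 varied together between libraries, so that their values are not independent draws to set against 1 in 20.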

How the results depend on the processing

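Of the 8 hyaluronan genes, the 4 called higher in day 7 injured against naive cartilage became 1 in DESeq2, which gave no adjusted p for Has2 and Tnfaip6 and an FDR of 0.0524 for Has1, 1 at an FDR of 0.01, and 1 to 4 without single libraries. The 4 called against day 7 contralateral cartilage became 5 in DESeq2, 1 at an FDR of 0.01 and 1 to 5 without single libraries. From day 1 to day 7 in injured cartilage the 1 call became 2 in limma-voom, 3 with no fold limit and 1 to 2 without single libraries. In the interaction the 0 calls became 1 in DESeq2, 1 with average transcript lengths as offset and 0 to 1 without single libraries. The 13 other pathway genes higher against contralateral cartilage became 8 to 12. Log2 differences changed sign without single libraries for day 1 injured against naive (Has1 -0.28 to 1.52, Has2 -0.19 to 1.16, Tnfaip6 -0.61 to 2.54), day 1 injured against contralateral (Has1 -0.85 to 2.04, Has2 -0.60 to 1.54, Tnfaip6 -1.89 to 2.69) and day 1 contralateral against naive (Has1 -1.12 to 1.17, Has2 -0.88 to 0.90, Tnfaip6 -1.25 to 2.38). They also did for Has1 in day 7 contralateral against naive (-0.64 to 0.17), Ugp2 in day 7 injured against naive (-0.0195 to 0.18), and Has3 (-0.23 to 0.22, and -0.0388 with the length offset) and Hyal1 (-0.0475 to 0.21) in day 7 injured against contralateral cartilage. The Hyal2-201 share differed by -3.695 to 4.55 percentage points, and by -0.68 in estimated counts. The cause was not tested. For single genes and levels, 539 values under other settings and 590 without single libraries kept their direction and their side of the threshold. Without single libraries, 25 values changed sign, 44 lost a call, 8 gained a call and 2 counts moved. Under other settings these numbers were 2, 10, 7 and 10, the last including levels. No paired analysis was possible because the labels do not say which libraries came from the same mice.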

Other observations

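Some inflammatory genes, chosen after their values were seen, were also high in the libraries in which Has1, Has2 and Tnfaip6 were high outside day 7 injured cartilage. Ccl2, a monocyte chemoattractant, had 15.1 CPM in day 1 injured replicate 2, 13.3 in day 1 contralateral replicate 3 and 17.9 in naive replicate 5, but 1.68, 2.91 and 3.05 CPM in the day 7 injured libraries. Cxcl1, a neutrophil chemoattractant, had 10.1, 5.79 and 4.06 CPM in the first 3 libraries and 0.772, 0.444 and 2.45 in the day 7 injured libraries. Il6 had 3.21, 2.57 and 2.03 CPM, against 0.499, 0.507 and 0.925.

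Ptgs2, the inducible cyclooxygenase, was ordered the other way, with 14.1, 9.88 and 7.12 CPM in those 3 libraries and 32.3, 27.2 and 66.9 CPM in the day 7 injured libraries. The differences of these genes were not tested.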
